A study of Homo sapiens with 12 samples.

Results

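The genes described here are the immediate early genes and the feedback genes of the mitogen-activated protein (MAP) kinase pathway, chosen as a named set of 40 genes. They comprise dual-specificity phosphatases, Sprouty and Spred proteins, Fos and Jun proteins, EGR and KLF zinc fingers, the early genes IER2, IER3, IER5, PHLDA1, MYC and MAFF, and the ETS factors with SRF. The platform annotation gave 89 probe sets to 39 of these genes, out of 19775 genes with a probe set that carries 1 symbol, and 1 of the 40 is not reported here. Expression had been measured on 12 Affymetrix arrays of HK-2 cells, an immortalized line of proximal tubule epithelium from the human kidney. The cells had been given a high dose of an agent labelled Ota, or vehicle alone as control, for 24 h or 72 h, with 3 arrays in each of the 4 groups. The labels state neither the full name of Ota nor the dose. All 4 groups shared a DMEM and Ham's F12 medium with EGF at 10 ng/ml, hydrocortisone at 36 ng/ml, insulin and transferrin, and had been seeded 24 h before treatment. EGF drives the pathway studied here, so the controls were cells under constant growth factor and not resting cells. Arrays of 1 group are labelled biological replicates without a statement on separate cultures, so the p-values below reflect only how far these samples spread, which may be technical.

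Immediate early genes are transcribed within minutes of a growth factor or stress signal without new protein synthesis, through factors such as SRF, the ETS proteins beside it and CREB that MAP kinases or their target kinases phosphorylate. Many of their mRNAs carry AU-rich elements and decay quickly, so their level follows the signal closely. Their products include transcription factors such as AP-1, a dimer of Fos and Jun proteins, and EGR1. A slower arm of the response restrains the pathway: DUSPs remove phosphate from MAP kinases, while Sprouty and Spred proteins act on the steps between receptor and Raf. In the proximal tubule the ERK, JNK and p38 branches are known to respond to growth factors, oxidants and toxic injury. Protein and phosphorylation were not measured here.

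A level below is the deposited log2 GCRMA value of 1 probe set on 1 array, and a difference of 1 on this scale is a change by a factor of 2. A gene was tested if it exceeded a log2 level of 4 on at least 3 of the 12 arrays, and it was then represented by its probe set with the highest mean. Of the 39 genes, 34 passed among 10729 genes tested in all. The other 5 did not exceed the filter, at 2.57 to 3.19 for FOS, 2.27 to 2.32 for FOSB, 2.86 to 3.39 for EGR3, 2.36 to 3.17 for DUSP2 and 2.16 to 3.37 for DUSP4 over all arrays. FOS and FOSB, the classical partners of Jun proteins, and EGR3 therefore gave no usable signal at either time, which leaves their level unknown.

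Array-wide levels differed with treatment, which touches every direction described here. At 24 h the Ota arrays had a median gene level of 7.40 ± 0.16 (SD, n = 3) and the control arrays of 7.97 ± 0.05, and at 72 h the medians were 7.68 ± 0.05 and 7.96 ± 0.02. The 24 probe sets for bacterial poly-A spike-in transcripts were brighter on Ota arrays by 1.85 at 24 h and by 0.89 at 72 h, each with an exact two-sided permutation p = 0.1, the smallest that 3 against 3 arrays allow. As a measure of RNA quality that grows with degradation, the 3′ probe set of ACTB exceeded its 5′ probe set by 1.23 ± 0.15 on Ota arrays and 1.18 ± 0.19 on controls at 24 h (exact permutation p = 0.9). At 72 h the gap was 1.97 ± 0.33 with Ota and 1.39 ± 0.15 in controls (exact permutation p = 0.1), and its part in the rises and falls of that time was not tested. Each result was therefore also computed after quantile normalization, after centring each array on its median and after scaling each array to its spike-ins. These scalings moved the median log2 fold change of all genes by 0.20, 0.56 and -1.85 at 24 h and by 0.07, 0.28 and -0.89 at 72 h. Rises and falls are printed as log2 fold changes with their standard errors after ±, and a value in brackets after a gene name is likewise its log2 fold change. A direction described as held under all 4 scalings passed the test in the deposited values and in these 3. Spike-in scaling lowered every fold change of Ota against control. Of the calls over all tested genes, 1.49% were then rises at 24 h and 7.63% at 72 h. It raised every interaction by 0.96, and 91.9% of the called interactions were then positive. A fall or a positive interaction could hardly fail this setting, so holding under all 4 scalings says less for these than for a rise. In bulk RNA, fewer cells of a type and less RNA per cell cannot be told apart. Of the markers of the tubule cells, KRT8, KRT18, KRT19, CDH2 and PAX8 exceeded the filter, whereas PAX2, LRP2, CUBN, AQP1, ANPEP, GGT1 and SLC34A1 did not. The mean level of these 12 markers was 6.09 to 6.21 in 24 h controls, 5.59 to 6.08 with Ota at 24 h, 6.02 to 6.08 in 72 h controls and 5.68 to 6.01 with Ota at 72 h. KRT19 had group means of 11.99 in controls and 9.57 with Ota at 24 h, and 11.54 and 10.24 at 72 h. PAX8 had 10.08 and 7.54, then 9.58 and 7.99, and KRT18 12.32 and 10.87, then 12.65 and 12.17. Endothelial markers exceeded it in 0 of 5 genes and leukocyte markers in 0 of 3. Fibroblast markers did so in 3 of 5, podocyte markers in 2 of 3 and collecting duct markers in 1 of 2 (AQP3). The mean level of the 5 fibroblast markers was 6.67 to 6.83 in 24 h controls, 6.49 to 6.83 with Ota at 24 h, 5.77 to 5.94 in 72 h controls and 6.21 to 6.54 with Ota at 72 h. The mean of the 2 collecting duct markers was 4.65 to 5.11, 5.30 to 5.56, 4.43 to 4.57 and 5.24 to 5.76 in the same order of groups. Their part in the results below was not tested.

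At 24 h more of the early response genes were lower than higher in Ota-treated cells, and at 72 h more were higher than lower. With limma and Benjamini-Hochberg adjustment over all tested genes, 15 of the 34 fell and 6 rose at 24 h, where 61.3% of all tested genes passed the test, 40.5% as falls and 20.8% as rises. At 72 h 18 of the 34 rose and 7 fell, where 60.1% of all tested genes passed, 24.8% as rises and 35.2% as falls. The members' shares were thus 44.1% fallen and 17.6% risen at 24 h, close to the background, and 52.9% risen and 20.6% fallen at 72 h. The median log2 fold change of the 34 genes was -0.58 at 24 h and 0.80 at 72 h, against -0.24 and -0.11 over all tested genes. With a replicate block, which fits the numbered pairs of 24 h, 18 fell and 6 rose at that time, DUSP7, SPRY2 and FOSL1 being added to the falls, where 41.3% of all tested genes fell and 21.8% rose; all calls at 24 h below are without the block unless it is named. The split at 24 h depended on the scaling: 11 rose and 14 fell after quantile normalization, 13 and 11 after centring, and 2 and 29 after spike-in scaling. At 72 h these splits were 20 and 7, 23 and 7, and 8 and 13. Rises were thus 44%, 54.2% and 6.45% of the members' calls at 24 h, against 45.0%, 61.9% and 1.49% of the calls over all tested genes. The shares at 72 h were 74.1%, 76.7% and 38.1%, against 44.4%, 56.1% and 7.63%. These shares over all tested genes also apply to the counts of the other gene lists under these scalings below, where they are not repeated.

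**Figure D1:**
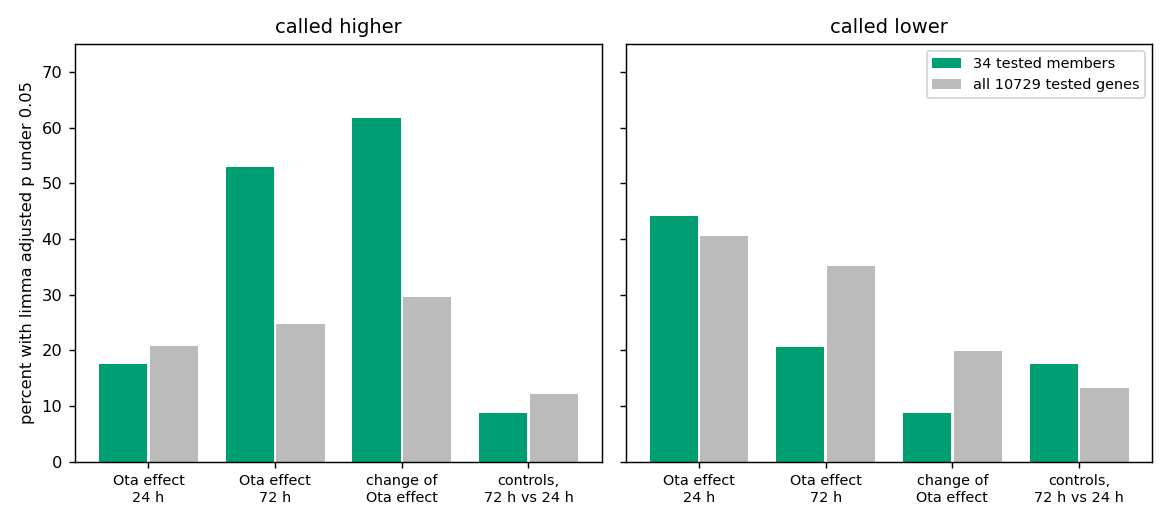
Shares in percent (y axis) of the 34 tested early response and feedback genes, beside the shares of all 10729 tested genes, that rose or fell at a limma adjusted p under 0.05 in each comparison. At 72 h 52.9% of the 34 genes rose against 24.8% of all genes, while at 24 h the members' shares lay near those of all genes.

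The 3 Ota arrays did not overlap the 3 controls in 23 of the 34 genes at 24 h and in 28 at 72 h, where 65.7% and 73.7% of all tested genes were so separated. The change of the Ota effect between the times was tested as an interaction term. It was positive and past the threshold in 21 of the 34 genes and negative in 3, against 29.6% and 19.9% (49.5% together) of all tested genes. Of the 34, 29 had a higher mean level in Ota cells at 72 h than at 24 h (85.3%, against 58.0% of all tested genes), and 16 did so among the controls (47.1%, against 50.1%). Control cells themselves changed in fewer genes over time, with 3 of the 34 rising (DUSP16, SPRY1 and MAFF) and 6 falling (DUSP1, FOSL2, EGR1, KLF10, ETV4 and ELK3), where 12.2% and 13.3% (25.5% together) of all tested genes did. The falls of DUSP1, FOSL2, EGR1 and ETV4 among controls were each lost without 1 of several arrays, in FOSL2 without the first control of either time. After spike-in scaling 26 interaction terms were positive and 0 negative, and after centring 18 and 5. Positive terms were thus 100% and 78.3% of the members' calls, against 91.9% and 46.9% of the calls over all tested genes. The interaction was positive under all 4 scalings in DUSP1, DUSP5, DUSP6, DUSP7, DUSP14, SPRY4, SPRED1, SPRED2, FOSL1, FOSL2, JUN, JUND, KLF10, IER3, IER5, SRF and ELK3. These are calls of 1 probe set per gene, and for JUND another probe set passed in the opposite direction. The Ota levels of that probe set lay below the filter at both times, so it could not show a deeper fall. FOSL1 exceeded the filter on 2 Ota arrays and 1 control only. These were Ota arrays of 72 h (4.11 and 5.02) and a control of 24 h (4.19), groups that enter the interaction with a positive sign. The filter thus favoured its positive term and its rise at 72 h. Its calls, although counted, lend the counts no support.

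The genes followed several courses. DUSP1, DUSP5, FOSL2, IER5 and ELK3 fell at 24 h and rose at 72 h, a course of 14.7% of the 34 genes and 3.64% of all tested genes. Another 8 genes (DUSP7, SPRY4, FOSL1, JUN, JUNB, KLF4, KLF6 and SRF) passed the test at 72 h alone, all as rises, which is 23.5% of the 34 where 10.2% of all tested genes did so. DUSP8, DUSP10, DUSP14, KLF10 and MAFF rose at both times, and SPRY1, SPRED1, JUND, EGR1, IER2, PHLDA1 and MYC fell at both, PHLDA1 in the probe set that represents it and not in all of its probe sets. Rises at both times made up 14.7% of the 34 genes and 11.0% of all tested genes, and falls at both 20.6% and 21.6%. DUSP6, SPRED2 and IER3 fell at 24 h and did not pass at 72 h, while DUSP16 rose at 24 h and did not pass at 72 h, courses of 8.82% and 2.94% of the 34 and of 15.2% and 7.46% of all tested genes. The remaining DUSP3, SPRY2, KLF2, ETV4 and ETV5 passed at neither time (14.7%, against 17.3%). With the replicate block at 24 h, 7 of the 34 fell and then rose, with DUSP7 and FOSL1 added (20.6%, against 3.80% of all tested genes), 6 rose at 72 h alone (17.6% against 9.79%), and SPRY2 fell at 24 h alone. These courses are of the deposited scaling. Rises at 24 h held under all 4 scalings in DUSP8 and DUSP10 only, and the 7 falls at 72 h held in all 7 genes. Of these, DUSP8 exceeded the filter on 6 Ota arrays and 0 controls, and SPRY1 on 1 Ota array and 5 controls. The filter thus favoured their directions, and the calls of both lend these counts no support. The same holds for the rise of FOSL1 at 72 h. Of the 5 genes that fell and then rose, FOSL2 alone kept both calls under all 4, and of the 8 that rose at 72 h alone, SPRY4 and SRF kept the rise.

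**Figure D2:**
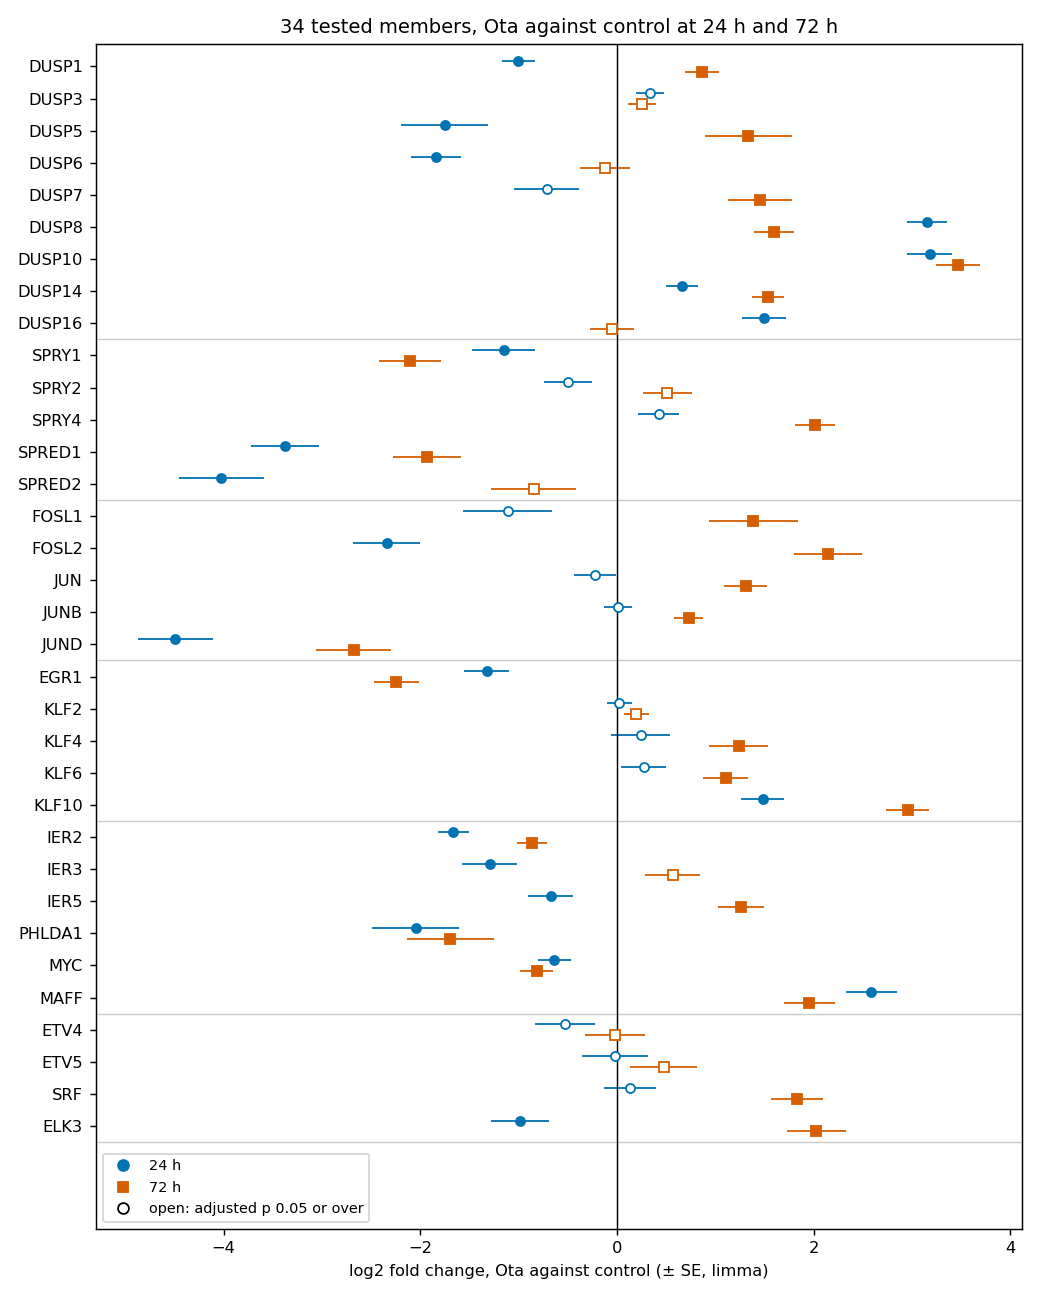
Log2 fold change of Ota against control (x axis, ± standard error, limma over 3 arrays a group) for each of the 34 tested genes, ordered by role on the y axis, at 24 h (circles) and 72 h (squares). Filled symbols passed an adjusted p of 0.05, and most squares lie to the right of the circle of the same gene.

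RefSeq promoter windows (GRCh38.p14) were matched for 30 of the 39 genes, and the 250 bases before the annotated start were searched on both strands for 6 motifs. Where 1 of these genes had several windows, only the first listed was searched, so other starts were not covered. The windows of the whole table were all kept, so its shares are of windows and not of genes. These were the CArG box bound by SRF, the full cyclic AMP response element TGACGTCA bound by CREB and ATF factors, the AP-1 site TGANTCA, the ETS core CCGGAAG, the EGR site GCGTGGGCG and the TATAAA box. A CArG box lay in 2 of the 30 windows (EGR1 and SRF), against 1.16% of 35116 windows in the table. TGACGTCA lay in 4 (DUSP1, DUSP8, JUND and MAFF), or 13.3% against 1.65%. TATAAA lay in 4 (DUSP1, FOS, FOSB and JUNB) against 10.7% of all windows, CCGGAAG in 1 (IER2) against 8.52%, and TGANTCA and GCGTGGGCG in 0 against 6.57% and 0.72%. No match to any motif was found in 20 of the 30 windows. The letters TATAAA can also occur inside a CArG box. A match describes letters only and shows no binding. The 5 windows below are printed because their genes made some of the largest changes and because holders of the same motif moved in different directions; capitals mark the CArG boxes of EGR1 and SRF and the TGACGTCA of the other three, each read 5′ to 3′ on the gene's strand.
EGR1: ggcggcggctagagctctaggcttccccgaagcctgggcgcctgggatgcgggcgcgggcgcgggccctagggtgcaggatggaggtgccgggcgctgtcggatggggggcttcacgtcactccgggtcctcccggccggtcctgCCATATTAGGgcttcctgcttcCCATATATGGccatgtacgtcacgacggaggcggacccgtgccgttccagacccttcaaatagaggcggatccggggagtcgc
SRF: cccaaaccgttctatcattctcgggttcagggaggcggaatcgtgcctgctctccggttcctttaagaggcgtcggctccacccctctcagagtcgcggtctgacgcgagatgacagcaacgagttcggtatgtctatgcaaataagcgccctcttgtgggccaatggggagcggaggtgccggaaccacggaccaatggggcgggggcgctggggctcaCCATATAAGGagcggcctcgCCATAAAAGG
DUSP8: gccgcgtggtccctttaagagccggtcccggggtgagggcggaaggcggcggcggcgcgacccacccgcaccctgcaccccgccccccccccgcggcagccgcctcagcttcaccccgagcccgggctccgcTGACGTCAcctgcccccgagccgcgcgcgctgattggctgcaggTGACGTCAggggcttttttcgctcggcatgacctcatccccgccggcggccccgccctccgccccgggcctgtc
MAFF: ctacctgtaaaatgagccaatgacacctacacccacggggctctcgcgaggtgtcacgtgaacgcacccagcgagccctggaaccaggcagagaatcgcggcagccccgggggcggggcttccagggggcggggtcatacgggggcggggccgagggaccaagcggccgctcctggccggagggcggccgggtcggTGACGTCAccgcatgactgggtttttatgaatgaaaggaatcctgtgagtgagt
JUND: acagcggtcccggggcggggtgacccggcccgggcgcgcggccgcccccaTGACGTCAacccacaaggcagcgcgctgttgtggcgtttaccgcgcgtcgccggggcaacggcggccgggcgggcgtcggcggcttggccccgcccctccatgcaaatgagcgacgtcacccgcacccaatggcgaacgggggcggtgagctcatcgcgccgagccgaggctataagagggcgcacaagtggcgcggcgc
The windows lie at chr5:138465229-138465478 (plus strand), chr6:43171019-43171268 (plus), chr11:1572272-1572521 (minus), chr22:38201744-38201993 (plus) and chr19:18281623-18281872 (minus). The CArG boxes of EGR1 start 105 and 83 bases before the annotated start and those of SRF 30 and 10 bases before it. TGACGTCA starts 118 and 74 bases before the start in DUSP8, 54 bases before it in MAFF and 200 bases before it in JUND. EGR1 fell at both times, while SRF did not pass at 24 h and rose at 72 h. DUSP8 and MAFF rose at both times, JUND fell at both, and DUSP1, the fourth holder of TGACGTCA, fell and then rose.

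Among the phosphatases, 4 of 9 tested DUSPs rose and 3 fell at 24 h (against 20.8% and 40.5% of all tested genes). At 72 h 6 rose and 0 fell (against 24.8% and 35.2%). After spike-in scaling only DUSP8 and DUSP10 kept their rises at either time. DUSP10 (MKP-5), which acts mainly on JNK and p38, rose furthest of the 9 (probe set 221563_at). Its level was 8.62, 8.69 and 8.24 on the 3 Ota arrays and 5.60, 5.34 and 5.07 on the controls at 24 h, and 8.76, 8.72 and 9.01 against 5.47, 4.89 and 5.74 at 72 h. All 6 Ota arrays lay above all 6 controls by more than 2 log2 units. The log2 fold changes were 3.18 ± 0.23 (SE, limma adjusted p = 3.64e-07) and 3.47 ± 0.23 (adjusted p = 2.35e-07), with an interaction of 0.29 (adjusted p = 0.478) that was 1.25 (adjusted p = 0.0183) after spike-in scaling. Its second probe set, 215501_s_at, rose by 1.56 at 24 h and 2.81 at 72 h, and its interaction passed as a rise (1.25, adjusted p = 0.0459). Whether the effect grew between the times thus depended on the probe set and the scaling.

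DUSP8, another phosphatase of JNK and p38, was higher with Ota at both times but less so at 72 h (probe set 206374_at). Its control levels of 3.32, 3.68 and 3.59 at 24 h and 3.97, 4.0 and 3.65 at 72 h lay at or below the filter of 4. DUSP8 therefore entered the test only through its Ota arrays and had to differ, so its rises, although counted, are a description of its levels and lend the counts no support. With Ota it reached 6.55, 7.04 and 6.45 and then 5.79, 5.20 and 5.42, with no overlap of Ota and control arrays. On the log2 scale it rose by 3.15 ± 0.20 at 24 h (adjusted p = 1.79e-07) and 1.59 ± 0.20 at 72 h (adjusted p = 3.65e-05). The interaction was -1.55 ± 0.29 (adjusted p = 0.00107), or -0.59 (adjusted p = 0.23) after spike-in scaling. Its second probe set, 238594_x_at, rose by 1.45 at 24 h and had a log2 fold change of 0.48 at 72 h (adjusted p = 0.125), so the rise at 72 h passed in 1 of 2 probe sets. GCRMA compresses low levels, which limits the precision of a fold against such controls.

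DUSP6 (MKP-3) and DUSP5 are ERK-specific phosphatases, DUSP6 of the cytoplasm and DUSP5 of the nucleus, and both are transcribed in response to ERK itself. DUSP6 (probe set 208891_at) had levels of 11.19, 10.75 and 11.34 on Ota arrays and 13.05, 12.60 and 13.15 on controls at 24 h. By 72 h the levels of 12.41, 11.87 and 12.89 and 12.55, 12.38 and 12.61 overlapped. It fell by 1.84 at 24 h (SE 0.25, adjusted p = 6.55e-05) under all 4 scalings and in all 3 of its probe sets. At 72 h the difference was -0.12 ± 0.25 (adjusted p = 0.699), and the interaction was 1.71 ± 0.36 (adjusted p = 0.0023).

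DUSP5 (probe set 209457_at) moved from below to above its controls. It had levels of 5.76, 6.10 and 7.49 with Ota and 8.45, 8.26 and 7.89 in controls at 24 h, then 8.74, 8.45 and 9.67 against 7.95, 7.03 and 7.88 at 72 h. The groups were separated at each time, although 1 Ota array at 24 h lay near the controls. The log2 fold change was -1.75 ± 0.44 (adjusted p = 0.00466) and then 1.34 ± 0.44 (adjusted p = 0.0208), with an interaction of 3.09 ± 0.63 (adjusted p = 0.00188). The rise at 72 h was 0.98 (adjusted p = 0.0914) without the third Ota array of that time and 1.04 without the second control.

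DUSP14 (MKP-6), a small phosphatase described for ERK and JNK, rose moderately (probe set 203367_at). Levels were 7.99, 7.83 and 8.22 with Ota and 7.35, 7.13 and 7.58 in controls at 24 h. The 72 h levels were 8.77, 8.52 and 8.93 against 7.17, 7.24 and 7.21. The groups were separated at both times, with log2 fold changes of 0.66 ± 0.16 (adjusted p = 0.00439) and 1.53 ± 0.16 (adjusted p = 9.37e-06), and spike-in scaling turned the first to -1.19. DUSP1 (MKP-1), the stress-induced phosphatase of all 3 MAP kinase branches, went from a log2 fold change of -1.0 (adjusted p = 0.000294) to 0.86 (adjusted p = 0.000871), the latter -0.025 after spike-in scaling. Its Ota levels were 9.07 to 9.24 at 24 h and 10.22 to 10.92 at 72 h, below and then above all controls of the same time. Its second fitted probe set, 201044_x_at, showed log2 fold changes of -0.10 at 24 h and 1.13 at 72 h, so the fall rests on 1 of 2 probe sets. DUSP16 (MKP-7), which acts on JNK, rose by 1.50 at 24 h (adjusted p = 0.000118), with a value of -0.35 after spike-in scaling. Its second fitted probe set had a log2 fold change of 0.71 at 24 h and did not pass, so the rise rests on 1 of 2 probe sets. DUSP16 had a log2 fold change of -0.05 at 72 h, with its controls having themselves risen by 1.23 (adjusted p = 0.00196). DUSP7, a phosphatase of ERK, had a log2 fold change of -0.72 at 24 h (adjusted p = 0.0777, or 0.0476 with a replicate block) and rose by 1.45 at 72 h (adjusted p = 0.00232). DUSP3 had log2 fold changes of 0.33 and 0.25, neither past the threshold, and its probe set 201537_s_at fell by 0.97 at 24 h.

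**Figure D3:**
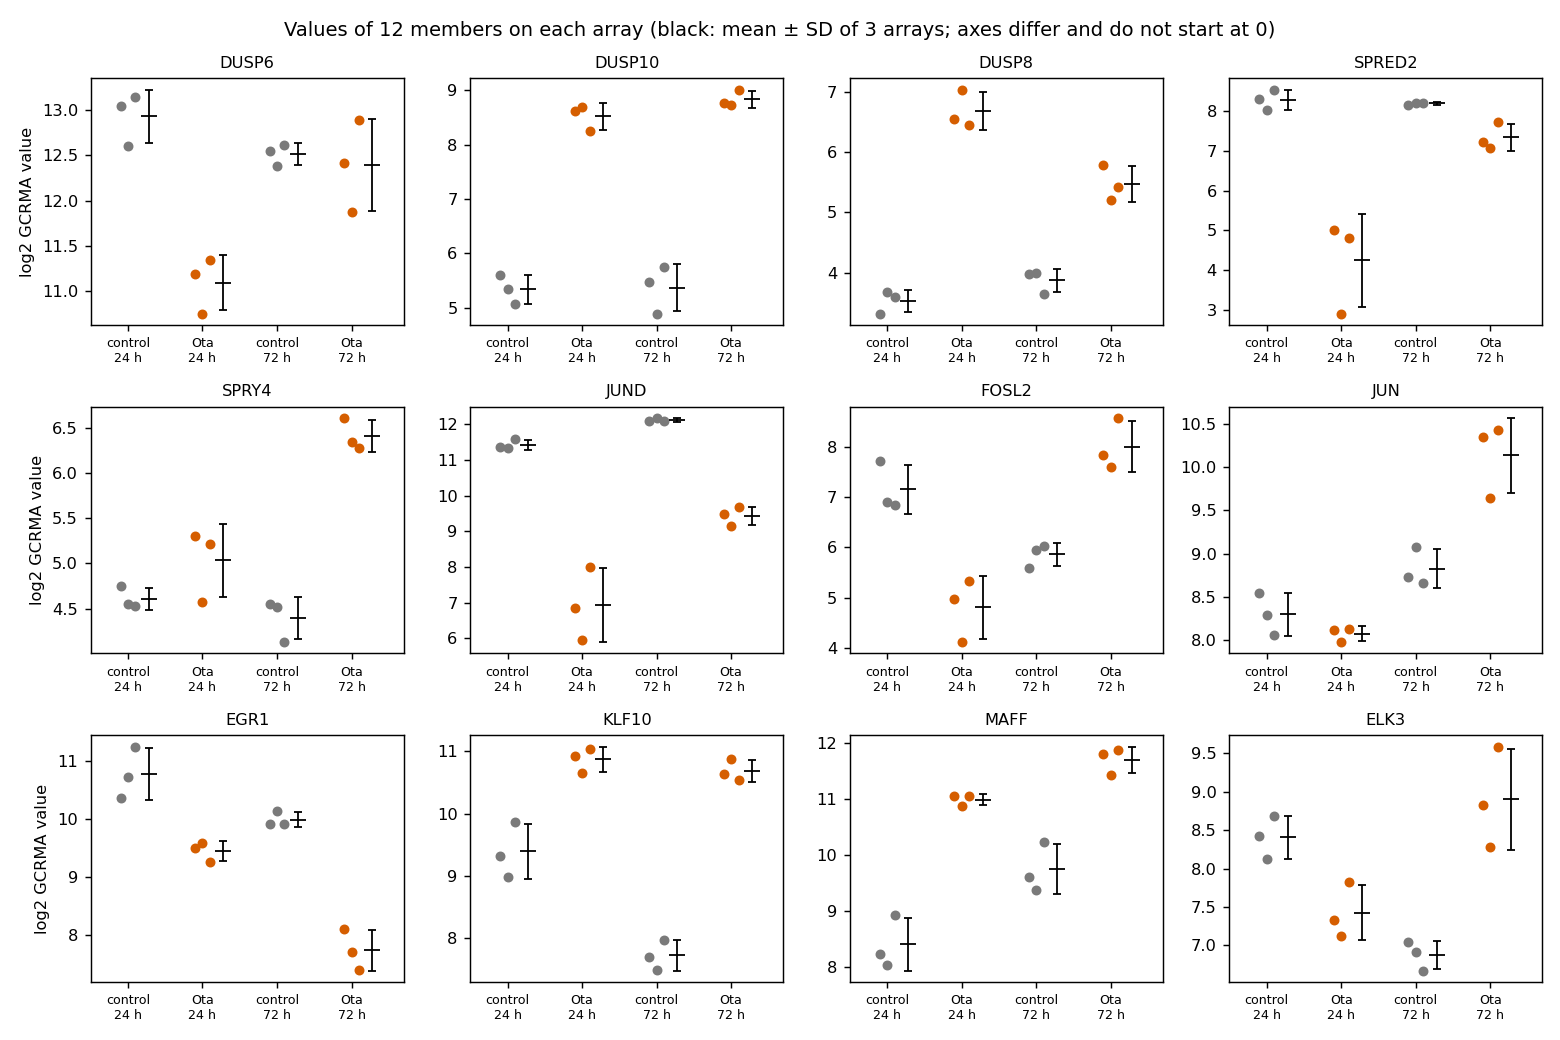
Log2 GCRMA level on each array (y axis, which differs between panels and does not start at 0) for 12 genes from the 6 role groups, by treatment and time on the x axis; points are single arrays and black bars the mean ± SD of 3 arrays. DUSP10 and MAFF lie above their controls at both times, JUND lies below them at both, and FOSL2 and ELK3 lie below at 24 h and above at 72 h.

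The Sprouty and Spred inhibitors included some of the deepest falls. Of 5 tested members 0 rose and 3 fell at 24 h, where 20.8% and 40.5% of all tested genes did. At 72 h 1 rose and 2 fell, where 24.8% and 35.2% of all tested genes did. SPRED2, a membrane-bound inhibitor of Raf activation by Ras, was at 5.01, 2.92 and 4.82 with Ota and 8.30, 8.01 and 8.51 in controls at 24 h (probe set 212458_at). It was at 7.21, 7.07 and 7.71 against 8.14, 8.20 and 8.20 at 72 h. Every Ota array was below every control at both times, and the gap at 72 h was much narrower. The log2 fold change was -4.02 ± 0.43 at 24 h (adjusted p = 8.66e-06) under all 4 scalings. The 72 h value was -0.85 ± 0.43 (adjusted p = 0.11), and the interaction was 3.18 ± 0.61 (adjusted p = 0.00133).

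SPRED1, the close relative that is mutated in Legius syndrome, had levels of 4.61, 3.76 and 4.80 with Ota and 7.91, 7.12 and 8.26 in controls at 24 h (probe set 226837_at). At 72 h the levels were 6.74, 5.74 and 6.11 and 7.92, 8.21 and 8.25, again without overlap. It fell by 3.38 (SE 0.35, adjusted p = 6.23e-06) and 1.93 (adjusted p = 0.000457), both under all 4 scalings. Its probe set 235074_at fell by 0.77 at 24 h and had a log2 fold change of -0.15 at 72 h, where it did not pass.

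SPRY1 and SPRY4 are inhibitors of receptor tyrosine kinase signalling that ERK activity normally induces, and they moved in different directions. SPRY1 had levels of 3.88, 2.77 and 3.53 with Ota and 4.99, 3.93 and 4.72 in controls at 24 h, then 4.01, 3.95 and 3.60 against 6.24, 5.66 and 5.97 (probe set 212558_at). The groups were separated at both times, its controls rose by 1.41 over time (adjusted p = 0.00678), and its Ota arrays stayed near or below the filter: 1 Ota array and 5 controls exceeded it, so SPRY1 was tested through its controls. Its falls, although counted, lend the counts no support. It fell by 1.15 (adjusted p = 0.00757) and 2.10 (adjusted p = 0.000124), and the first was -0.59 (adjusted p = 0.075) after centring. Another SPRY1 probe set, 230212_at, did not pass the filter and was not fitted. At 24 h it lay the other way, at 4.07, 3.97 and 4.03 with Ota against 3.13, 2.17 and 2.93 in controls. Its 72 h arrays overlapped, so the direction of SPRY1 at 24 h rests on 1 probe set. SPRY4 (probe set 221489_s_at) had levels of 5.31, 4.57 and 5.22 and 4.75, 4.55 and 4.53 at 24 h, then 6.61, 6.35 and 6.28 with Ota and 4.55, 4.52 and 4.13 in controls at 72 h. The groups overlapped at 24 h and lay more than 1 log2 unit apart at 72 h. The log2 fold change of 0.42 ± 0.21 at 24 h missed the threshold (adjusted p = 0.0947). It passed as a rise after quantile normalization (0.80, adjusted p = 0.00264), after centring (0.98, adjusted p = 0.000317) and without the second Ota array of 24 h (0.66, adjusted p = 0.0056), and as a fall of 1.43 after spike-in scaling, while the rise of 2.01 ± 0.21 at 72 h (adjusted p = 6.49e-06) held under all 4 scalings. SPRY2, which passed at neither time in the deposited values, had log2 fold changes of -0.50 (adjusted p = 0.0978, or 0.0302 with a replicate block at 24 h) and 0.51 (adjusted p = 0.0912). The latter passed as a rise after quantile normalization (0.62, adjusted p = 0.0151), after centring (0.79, adjusted p = 0.00355), with the 2 groups alone (adjusted p = 0.0119) and without the second Ota array of 24 h (adjusted p = 0.0184), and was -0.38 after spike-in scaling.

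Among the Fos and Jun proteins, the subunits of AP-1, 0 of 5 rose and 2 fell at 24 h (against 20.8% and 40.5% of all tested genes). At 72 h 4 rose and 1 fell (against 24.8% and 35.2%). JUND, the Jun protein that most cells hold at a steady level and that restrains growth in many of them, fell furthest of all 34 genes (probe set 203752_s_at). Its level was 6.85, 5.94 and 8.01 with Ota against 11.36, 11.32 and 11.59 in controls at 24 h, and 9.47, 9.15 and 9.67 against 12.08, 12.17 and 12.09 at 72 h. The lowest control was more than 3 log2 units above the highest Ota array at 24 h and more than 2 at 72 h. The log2 fold changes were -4.49 ± 0.38 (adjusted p = 1.48e-06), a 22.5-fold decrease, and -2.68 ± 0.38 (adjusted p = 8.6e-05). Both held under all 4 scalings, and all 3 of its probe sets fell at both times. Of these, 214326_x_at exceeded the filter on control arrays only, with Ota levels of 2.70 to 2.94. The filter thus favoured its falls, which lend no support. The interaction of 1.81 (adjusted p = 0.0162) was lost when the probe sets were averaged and when no filter was set. Of its other probe sets, 203751_x_at had an interaction of -0.44 (adjusted p = 0.295) and 214326_x_at one of -0.75 (adjusted p = 0.046). With its Ota levels below the filter at both times, 214326_x_at could not show a deeper fall. A shallower fall thus rested on 203752_s_at alone and was not established.

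FOSL2 (Fra-2), a Fos protein without the strong activation domain of FOS, reversed (probe set 225262_at). It had levels of 4.98, 4.12 and 5.33 with Ota and 7.71, 6.91 and 6.84 in controls at 24 h. The levels at 72 h were 7.84, 7.60 and 8.57 with Ota and 5.60, 5.95 and 6.03 in controls. All Ota arrays lay below their controls at 24 h and above them at 72 h. The fold changes of -2.34 ± 0.35 (adjusted p = 0.000108) and 2.14 ± 0.35 (adjusted p = 0.000215) held under all 4 scalings, and the interaction of 4.49 ± 0.49 (adjusted p = 3.72e-05) had the greatest size among the 34 genes. Its probe sets disagreed on the second time: 218880_at showed log2 fold changes of -3.51 and -0.20, and 228188_at -2.72 and 0.51, at 24 h and 72 h. The rise at 72 h thus passed in 1 of 4 probe sets.

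FOSL1 (Fra-1), which ERK activity stabilizes and induces, lay near the filter throughout (probe set 204420_at). It had levels of 2.72, 2.42 and 2.66 with Ota and 3.93, 3.02 and 4.19 in controls at 24 h, then 4.11, 2.82 and 5.02 against 2.44, 2.83 and 2.52. The groups were separated at 24 h and overlapped at 72 h. It had a log2 fold change of -1.11 ± 0.45 at 24 h (adjusted p = 0.0505, or 0.049 with a replicate block) and rose by 1.39 ± 0.45 at 72 h (adjusted p = 0.0195). The latter call was lost without the first or the third Ota array, without the first or the third control of that time, and after spike-in scaling (0.50). Only 2 Ota arrays of 72 h and 1 control of 24 h exceeded the filter, so this rise, although counted, lends the counts no support.

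JUN and JUNB did not pass at 24 h and rose at 72 h. JUN, the classical partner of FOS and a target of JNK, had levels of 8.12, 7.98 and 8.13 with Ota and 8.55, 8.29 and 8.06 in controls at 24 h, then 10.34, 9.64 and 10.42 against 8.73, 9.08 and 8.66 (probe set 201464_x_at). The 72 h arrays did not overlap and differed by 1.31 ± 0.22 (adjusted p = 0.000256), or 0.42 (adjusted p = 0.272) after spike-in scaling. At 24 h JUN had a log2 fold change of -0.22 (adjusted p = 0.392), while its probe set 201466_s_at rose by 1.21. JUNB, which can oppose JUN at some promoters, had levels of 7.06, 7.04 and 7.07 against 6.99, 7.24 and 6.92 at 24 h and 7.28, 7.31 and 7.60 against 6.66, 6.52 and 6.82 at 72 h (probe set 201473_at). Its difference was 0.01 (adjusted p = 0.964) at 24 h and 0.73 ± 0.15 (adjusted p = 0.00101) at 72 h. Spike-in scaling turned the latter to -0.16.

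Of the 5 tested EGR and KLF zinc fingers 1 rose and 1 fell at 24 h (against 20.8% and 40.5% of all tested genes). At 72 h 3 rose and 1 fell (against 24.8% and 35.2%). EGR1, the growth factor-induced factor whose promoter is a standard readout of ERK and SRF, was at 9.50, 9.59 and 9.27 with Ota and 10.37, 10.72 and 11.25 in controls at 24 h (probe set 227404_s_at). At 72 h it was at 8.11, 7.72 and 7.41 against 9.92, 10.14 and 9.91. The Ota arrays lay below all controls at each time. EGR1 fell by 1.33 (SE 0.23, adjusted p = 0.000396) and 2.24 (adjusted p = 7.08e-06) under all 4 scalings and in both probe sets. Its interaction of -0.92 (adjusted p = 0.0364) was 0.044 after spike-in scaling, so a deepening of the fall was not established.

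KLF10, a repressor that TGF-beta induces early, rose at both times (probe set 202393_s_at). Levels were 10.93, 10.65 and 11.04 with Ota and 9.32, 8.99 and 9.87 in controls at 24 h, and 10.64, 10.87 and 10.54 against 7.70, 7.50 and 7.98 at 72 h. The Ota arrays stayed between 10.54 and 11.04, and the controls fell by 1.67 over time (adjusted p = 0.00023). The log2 fold change was 1.48 ± 0.22 (adjusted p = 0.000121) and 2.95 ± 0.22 (adjusted p = 6.38e-07). Spike-in scaling gave -0.37 (adjusted p = 0.259) at 24 h and kept the rise at 72 h.

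KLF4, an epithelial differentiation factor, had levels of 7.60, 7.09 and 7.86 with Ota and 7.35, 6.77 and 7.69 in controls at 24 h, then 8.73, 8.50 and 9.11 against 7.15, 7.43 and 8.04 at 72 h (probe set 221841_s_at). The 24 h arrays overlapped and the 72 h arrays did not, with log2 fold changes of 0.24 (adjusted p = 0.501) and 1.24 ± 0.30 (adjusted p = 0.0036). KLF6, an injury-induced factor of the kidney and other organs, had levels of 10.53, 10.29 and 10.55 against 10.29, 10.12 and 10.15 and then 10.72, 10.47 and 11.54 against 9.72, 9.84 and 9.83 (probe set 208961_s_at). KLF6 arrays were separated at both times, at 24 h so narrowly that the lowest Ota and the highest control level both round to 10.29. It rose by 1.11 ± 0.23 at 72 h (adjusted p = 0.00121) after 0.27 at 24 h (adjusted p = 0.32), and its probe set 1555832_s_at fell by 1.34 at 24 h. After spike-in scaling the 72 h values of KLF4 and KLF6 were 0.35 and 0.22, not past the threshold. KLF2 lay between 5.38 and 5.82 on all 12 arrays and passed at neither time.

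The early genes IER2, IER3, IER5, PHLDA1, MYC and MAFF counted 1 rise and 5 falls at 24 h (against 20.8% and 40.5% of all tested genes). At 72 h they counted 2 rises and 3 falls (against 24.8% and 35.2%). MAFF, a small Maf protein that pairs with NRF2-type factors at antioxidant response elements, was the single riser at 24 h (probe set 36711_at). Its levels were 11.05, 10.87 and 11.05 with Ota and 8.24, 8.04 and 8.93 in controls at 24 h, and 11.80, 11.43 and 11.87 against 9.61, 9.38 and 10.24 at 72 h. Ota arrays lay above all controls at both times, and the controls rose by 1.34 over time (adjusted p = 0.00284). The fold changes were 2.59 ± 0.26 (adjusted p = 5.17e-06) and 1.96 ± 0.26 (adjusted p = 4.67e-05), in both probe sets. Spike-in scaling gave 0.74 (adjusted p = 0.0595) at 24 h.

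IER2, a nuclear early gene of growth factor response, had levels of 8.24, 8.13 and 8.33 with Ota and 9.74, 10.16 and 9.79 in controls at 24 h, then 9.02, 9.0 and 8.68 against 9.83, 9.64 and 9.82 (probe set 202081_at). The arrays were separated at both times, and IER2 fell by 1.66 (adjusted p = 3.21e-06) and 0.86 (adjusted p = 0.000508) under all 4 scalings. IER3 (IEX-1), which prolongs ERK activity and modulates apoptosis, had levels of 8.94, 9.25 and 9.10 against 10.40, 10.51 and 10.26 at 24 h (probe set 201631_s_at). At 72 h it had levels of 11.16, 10.68 and 12.01 against 10.64, 10.49 and 11.0, with Ota and control arrays overlapping. It fell by 1.29 at 24 h (adjusted p = 0.00164) and had a log2 fold change of 0.57 at 72 h (adjusted p = 0.0976), with an interaction of 1.86 (adjusted p = 0.0024). IER5, a heat shock factor cofactor, had levels of 7.24, 6.59 and 7.64 against 7.93, 7.58 and 7.98 and then 8.77, 8.98 and 8.98 against 7.49, 7.68 and 7.77 (probe set 218611_at). The groups overlapped at 24 h and were separated at 72 h. Its rise of 1.26 ± 0.23 at 72 h (adjusted p = 0.000554) followed a fall of 0.68 at 24 h (adjusted p = 0.0242). That fall was lost after quantile normalization, after centring (-0.11, adjusted p = 0.608) and without the second Ota array or the first or the third control of 24 h, and the rise was 0.37 (adjusted p = 0.328) after spike-in scaling. MYC, the growth-promoting factor that ERK stabilizes, lay between 10.64 and 11.90 on all arrays. It fell by 0.64 (adjusted p = 0.00571) and 0.82 (adjusted p = 0.00111), and the first was -0.07 (adjusted p = 0.715) after centring.

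PHLDA1, a pleckstrin homology-like protein induced by ERK and linked to cell survival and death, could not be given a direction, because its probe sets moved in opposite directions. The probe set that represents it, 217996_at, had levels of 7.32, 5.71 and 7.31 with Ota and 9.28, 8.29 and 8.91 in controls at 24 h, and 7.65, 6.95 and 7.91 against 9.21, 8.71 and 9.67 at 72 h. All its Ota arrays lay below their controls, with log2 fold changes of -2.05 ± 0.44 (adjusted p = 0.00169) and -1.69 ± 0.44 (adjusted p = 0.00566). Probe set 225842_at had levels of 9.78, 9.13 and 9.40 with Ota and 6.71, 6.54 and 6.50 in controls at 24 h, and 9.30, 8.83 and 9.63 against 6.82, 5.36 and 6.46 at 72 h. Here all Ota arrays lay above their controls, by 2.86 ± 0.33 (adjusted p = 1.62e-05) and 3.04 ± 0.33 (adjusted p = 1.05e-05). Of the other three, 217997_at fell at both times, and 217998_at and 217999_s_at passed as rises at 72 h only (0.82 and 0.97). The mean over the 5 probe sets was 0.18 at 24 h (adjusted p = 0.654) and 0.33 at 72 h (adjusted p = 0.399). Of the 17 genes with several fitted probe sets, PHLDA1 was the 1 with calls in both directions at a single time, in either Ota comparison. All probe sets passed in 1 direction in 7 of the 17 genes at 24 h and in 7 at 72 h, and in 4 at both (DUSP10, JUND, EGR1 and MAFF). JUND's 214326_x_at was fitted only through its control arrays, and the DUSP8 probe sets only through their Ota arrays. Their calls lend these counts no support.

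**Figure D4:**
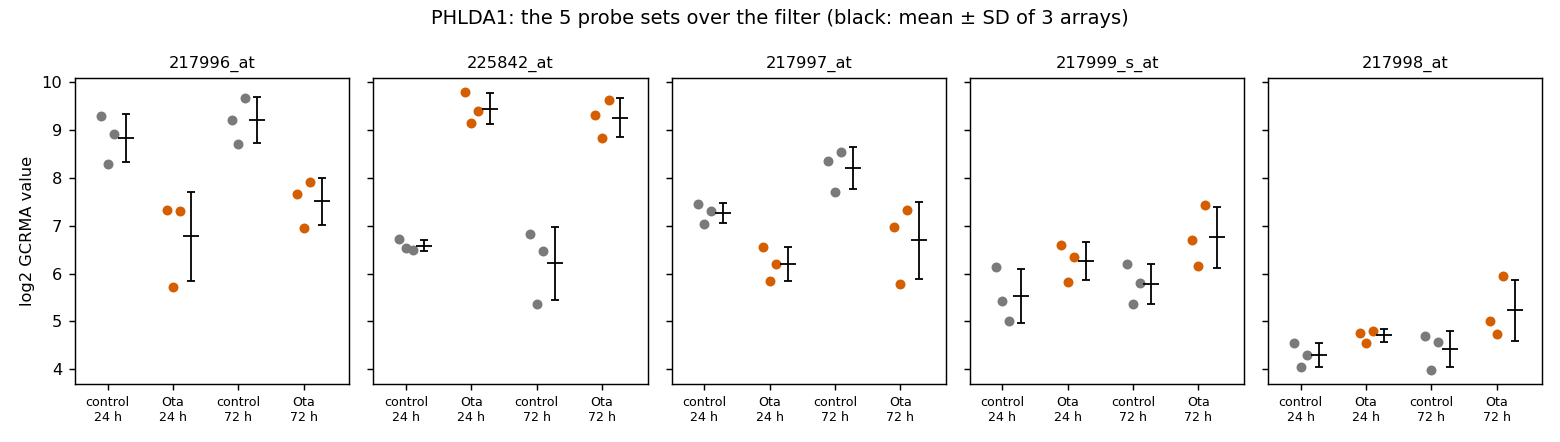
Log2 GCRMA level on each array (shared y axis, not starting at 0) for the 5 PHLDA1 probe sets over the filter, by treatment and time on the x axis; black bars show the mean ± SD of 3 arrays. Ota arrays lie below their controls in 217996_at and above them in 225842_at at both times.

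Among the ETS factors and SRF, 0 of 4 rose and 1 fell at 24 h (against 20.8% and 40.5% of all tested genes). At 72 h 2 rose and 0 fell (against 24.8% and 35.2%). ELK3 (Net), a ternary complex factor that binds beside SRF and represses until ERK phosphorylates it, had levels of 7.33, 7.12 and 7.82 with Ota and 8.43, 8.12 and 8.68 in controls at 24 h (probe set 221773_at). It had levels of 8.83, 8.28 and 9.59 against 7.04, 6.91 and 6.67 at 72 h. Ota arrays lay below the controls at 24 h and above them at 72 h, while the controls fell by 1.54 between the times (adjusted p = 0.00295). The fold changes were -0.99 ± 0.30 (adjusted p = 0.0132) and 2.03 ± 0.30 (adjusted p = 0.000109), with an interaction of 3.01 ± 0.42 (adjusted p = 0.000182). The fall at 24 h was -0.43 (adjusted p = 0.187) after centring and did not pass without the third control of that time, and the rise held under all 4 scalings.

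SRF itself, the factor of the CArG box, had levels of 6.67, 6.37 and 7.55 with Ota and 6.69, 6.55 and 6.97 in controls at 24 h, and 8.59, 8.41 and 8.09 against 6.66, 6.57 and 6.38 at 72 h (probe set 202401_s_at). The groups overlapped at 24 h and lay more than 1 log2 unit apart at 72 h. SRF rose by 1.83 ± 0.26 at 72 h (adjusted p = 9.42e-05) under all 4 scalings, after 0.13 at 24 h (adjusted p = 0.693). ETV4 and ETV5, PEA3-type factors that EGF and FGF signalling induces, passed at neither time, with log2 fold changes of -0.53 and -0.02 for ETV4 and -0.02 and 0.47 for ETV5. The levels were 4.57 to 6.14 for ETV4 and 7.66 to 9.65 for ETV5 over all arrays. Single probe sets of both passed: 1554576_a_at of ETV4 and 203349_s_at of ETV5 fell at 24 h (-0.83 and -0.89), and 203348_s_at of ETV5 rose at 72 h (0.45).

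The upstream components of the ERK cascade had 6 falls and 2 rises among 14 tested genes at 24 h, or 42.9% and 14.3%, where 40.5% and 20.8% of all tested genes fell and rose. At 72 h 6 fell and 3 rose, or 42.9% and 21.4%, where 35.2% and 24.8% of all tested genes did, so the shares lay near those of all genes. SOS2, a guanine nucleotide exchange factor for Ras, fell by 5.09 (SE 0.46, adjusted p = 2.4e-06) and ERBB2, a receptor of the EGF receptor family, by 2.96 at 24 h. The tyrosine phosphatase PTPN11 (SHP2) rose by 0.53 and the adaptor GRB2 by 0.42. At 72 h the scaffold KSR1 (1.83) and PTPN11 (1.12) rose, and SOS1 (-1.55) and SOS2 (-1.47) fell. The median log2 fold change of the 14 was -0.50 at 24 h and -0.09 at 72 h. After centring 4 rose and 3 fell at 24 h and 6 and 4 at 72 h, and after spike-in scaling 0 and 14, then 1 and 10. The falls at 72 h numbered 3 without the second Ota array of that time, and the rises 5 without the second Ota array of 24 h. The rises at 24 h numbered 1 without the first Ota array of 24 h, the first or the second of 72 h, or any 1 of the 6 controls.

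The stress MAP kinase list had 2 rises and 3 falls among 10 tested genes at 24 h (20% and 30%, against 20.8% and 40.5% of all tested genes) and 4 rises and 2 falls at 72 h (40% and 20%, against 24.8% and 35.2%). At 24 h the JNK gene MAPK9 (1.03) and MAP3K1 (0.80) rose, and MAP2K6, a p38 activator, (-2.64) and the p38 target kinase MAPKAPK3 (-1.01) fell. At 72 h MAP3K5 (ASK1), a kinase activated by oxidants, rose by 1.82 and MAPKAPK2 by 0.82, and MAPKAPK3 (-1.44) and MAP2K6 (-1.24) fell. Centring gave 6 rises and 1 fall at 24 h and 8 and 2 at 72 h, and spike-in scaling 0 and 10, then 1 and 2. Without the second Ota array of 24 h, 4 rose at that time.

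Of 12 tested kinases and factors below the MAP kinases, 2 rose and 7 fell at 24 h (16.7% and 58.3%, against 20.8% and 40.5% of all tested genes) and 3 rose and 3 fell at 72 h (25.0% each, against 24.8% and 35.2%). The MSK kinases RPS6KA5 (0.74) and RPS6KA4 (0.66) rose at 24 h, and the ternary complex factor ELK4 (-4.24) and the RSK kinase RPS6KA1 (-1.23) fell. At 72 h RPS6KA3 (1.86) and RPS6KA1 (0.65) rose, and ATF2, a JNK and p38 target, (-2.20) and MKNK2 (-1.65) fell. Centring gave 5 rises and 2 falls at 24 h and 3 and 3 at 72 h, and spike-in scaling 0 and 12, then 1 and 9. Without the second Ota array of 24 h the falls at 72 h numbered 5.

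Other early response genes outside the 40 split evenly at 24 h, with 7 rises and 7 falls among 16 tested (43.8% each, against 20.8% and 40.5% of all tested genes), and had 6 rises and 5 falls at 72 h (37.5% and 31.2%, against 24.8% and 35.2%). The stress factor ATF3 (3.61) and the urokinase receptor PLAUR (2.26) rose most at 24 h, and ID1 (-2.78), an inhibitor of basic helix-loop-helix factors, and TRIB1 (-2.70) fell most. PLAUR (5.91) and the EGF receptor ligand HBEGF (3.30) led the rises at 72 h, and ID1 (-3.08) and TRIB1 (-1.65) the falls. Centring gave 9 and 5 at 24 h and 7 and 5 at 72 h, and spike-in scaling 1 and 12, then 4 and 8.

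Proteins that bind or degrade AU-rich mRNAs, the class to which many early transcripts belong, fell in 8 of 9 tested genes and rose in 1 at 24 h (88.9% and 11.1%, against 40.5% and 20.8% of all tested genes), with 2 rises and 5 falls at 72 h (22.2% and 55.6%, against 24.8% and 35.2%). KHSRP, a decay-promoting factor, rose at both times (0.55 and 1.13), as did HNRNPD at 72 h (0.34). The deadenylase PARN (-3.27) and the exosome subunit EXOSC4 (-2.74) fell most at 24 h, and EXOSC4 (-1.84) and ZFP36L1 (-0.92) at 72 h. The median log2 fold change was -0.91 at 24 h and -0.56 at 72 h. Centring gave 1 rise and 5 falls at 24 h and 2 and 3 at 72 h, and spike-in scaling 0 and 9, then 0 and 7. Without the first or the third Ota array of 72 h, or without any 1 of the 3 controls of that time, 1 gene rose at 72 h.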

How the data were processed

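The 12 arrays fall into 4 groups of 3 by the labels. The values the authors deposited are on a log2 scale, 1 per probe set. The submitters' processing notes name GCRMA without a version, and the arrays normalized together and any filter are not given in the sources used here. The 40 genes, the other gene lists and the tests were chosen with earlier results of these data known. Some listed genes, 1 of the 40 among them, are not reported here. Of 54675 probe sets, 41097 carried 1 symbol in the platform annotation, 1801 several and 11777 none, and 41043 matched a current gene record; no probe set with several symbols was named. Probe sets with 1 symbol and a log2 level over 4 on at least 3 arrays were kept, with the highest mean per gene (10729 genes). The 4 group means were fitted with limma 3.58.1 in R 4.3.3 (moderated variances, 8 residual and 3.56 prior degrees of freedom, two-sided tests, Benjamini-Hochberg adjustment over genes, threshold 0.05); the fit was tested on simulated data. The median standard error at 24 h was 0.21, and the number of arrays limits the precision. Probe sets were also fitted separately.

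Array values were given for up to 5 genes in each role with the largest absolute log2 fold change past the threshold in either Ota comparison, and up to 2 genes in each direction and Ota comparison were named from each other list. Further probe sets and genes named for a disagreement were chosen after their values were seen. Equal replicate numbers were checked as pairs through the correlation of deviations from the group means. At 24 h these were 0.12, 0.23 and 0.27, and each array correlated best with its own number, so the numbers were taken to pair the samples there; at 72 h they were -0.05, 0.14 and 0.19 and were not, nor were controls over time, at 0.22, 0.084 and 0.17, although each array there correlated best with its own number. Alternatives were other scalings, filters, probe set rules, variance models, a replicate block, the 2 groups alone and leaving out each array. Promoter sequences are from RefSeq (GRCh38.p14), used as windows of 250 bases before the start; the build behind the array annotation is not given in the sources used here.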

Additional observations from a re-analysis of the deposited data

Results flagged for a closer look

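The effect of Ota differed between 24 h and 72 h in 24 of the 34 tested genes by the interaction term of the fit (limma, adjusted p under 0.05, 3 arrays a group), where 49.5% of all tested genes did. Among the phosphatases the log2 change of the effect was 1.87 for DUSP1, 3.09 for DUSP5, 1.71 for DUSP6, 2.17 for DUSP7 and 0.88 for DUSP14. It was -1.55 for DUSP8 and -1.55 for DUSP16, and neither passed after spike-in scaling (-0.59 and -0.59, limma adjusted p = 0.23 and 0.296). The Sprouty and Spred genes had 1.01 (SPRY2), 1.59 (SPRY4), 1.44 (SPRED1) and 3.18 (SPRED2). The Fos and Jun genes had 2.50 (FOSL1), 4.49 (FOSL2), 1.53 (JUN), 0.72 (JUNB) and 1.81 (JUND). JUND's probe set 214326_x_at passed in the opposite direction (-0.75), but with Ota levels below the filter at both times it could not show a deeper fall. The filter favoured the positive term of FOSL1, which lends the count no support. EGR1 had -0.92, KLF6 0.84 and KLF10 1.47. IER2, IER3 and IER5 had 0.80, 1.86 and 1.94. SRF had 1.70 and ELK3 3.01. Both effects are measured against controls of their own time, and the controls of DUSP1, DUSP16, FOSL2, EGR1, KLF10 and ELK3 themselves changed between the times. The interaction of SPRED1 was lost without the second Ota array of 24 h, the first of 72 h, the first or the third control of 24 h, or the first of 72 h (adjusted p 0.0562 to 0.0737). That of SPRY2 was lost without the first Ota array of 72 h, the first or the third control of 24 h, or any control of 72 h (0.0523 to 0.0745). EGR1 lost its call without any 1 of 9 of the 12 arrays (0.0557 to 0.0901) and KLF6 without any 1 of 11 (0.0506 to 0.0981).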

How the results depend on the processing

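Of 136 results (34 genes in 4 comparisons), 124 kept their side of the threshold after quantile normalization, 114 after centring and 91 after spike-in scaling. Those that passed also kept their direction, while those that did not pass may have changed sign. Counts of the 34 genes moved by over 1.5 times as follows. Rises at 24 h numbered 11, 13 and 2 after quantile normalization, centring and spike-in scaling, and falls 29 after spike-in scaling. Rises were 44%, 54.2% and 6.45% of the members' calls, against 45.0%, 61.9% and 1.49% of those over all tested genes. At 72 h spike-in scaling gave 8 rises and 13 falls (38.1% rises, against 7.63% of the calls over all tested genes). Leaving out probe sets marked as shared or cross-hybridizing gave 4 falls at 72 h. Negative interactions numbered 5 after centring and 0 after spike-in scaling. Positive ones were 78.3% and 100% of the members' calls, against 46.9% and 91.9% of those over all tested genes. Among controls over time, rises numbered 6 with the 2 groups alone, and falls 2 after spike-in scaling, 2 without a filter and 3 without shared probe sets. The setting without shared probe sets tested 24 of the 34 genes and lost no call in them; its fewer falls are those of JUND, EGR1 and MYC at 72 h and of DUSP1, EGR1 and KLF10 among controls over time, which it left untested. Spike-in scaling reversed the sign at 24 h in DUSP3 (-1.52), DUSP14 (-1.19), DUSP16 (-0.35), SPRY4 (-1.43), JUNB (-1.84), KLF2 (-1.82), KLF4 (-1.61), KLF6 (-1.58), KLF10 (-0.37) and SRF (-1.72). Among results past the threshold before or after this scaling, it did so at 72 h in DUSP1 (-0.025), DUSP3 (-0.64), JUNB (-0.16) and KLF2 (-0.69), and for the interaction in EGR1 (0.044). Reversals of results that passed in neither case, such as that of SPRY2 at 72 h, are not listed. Averaging probe sets reversed PHLDA1 at 24 h (0.18) and 72 h (0.33). Centring and spike-in scaling each add a shift common to all genes of an array, and which scaling is right was not tested. Leaving out each array in turn gave 2 to 7 falls among controls over time. With a replicate block, 6 genes rose and 18 fell at 24 h, 20 rose and 8 fell at 72 h, 22 interactions were positive and 3 negative, and 3 rose and 5 fell among controls over time; at 72 h SPRY2, SPRED2 and IER3 gained a call, and the interaction of EGR1 lost its call (adjusted p = 0.0522). GCRMA levels near 4 and below, as in FOSL1, SPRY1 and the controls of DUSP8, limit what folds of those genes can show.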
